A study of Bos taurus with 4 samples.

Results

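In bovine embryos of the 8- to 16-cell stage, 56 transcripts were at least 2-fold lower after knockdown of KDM5 genes than after injection of a negative control siRNA, and they are described here one role at a time. They were selected on the knockdown contrast itself. A row of the deposited expression table entered if its mean over the 4 libraries was at least 1 FPKM (fragments scaled to transcript length and library size) and if its mean log2(FPKM + 0.1) was lower in the knockdown by 1 or more. Of 14517 rows, 8970 reached 1 FPKM and 58 met both conditions, which is 0.647% of the rows tested. KDM5A and KDM5C, targets of the siRNAs, were left out, so 56 remained. In the other direction 715 rows (7.97%) were at least 2-fold higher. Because these values chose the members, their differences are a description, and no test is given for a member.

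The study compared 2 groups of Bos taurus embryos, each with 2 poly(A)-selected RNA libraries, collected 3 days after insemination. Zygotes received either a negative control siRNA (NC) or a mix of siRNAs to KDM5A, KDM5B and KDM5C (KDM5_KD), so all 4 libraries come from injected embryos. The labels do not say whether the libraries of a group are separate batches of embryos or how many embryos each pooled. A spread between them may therefore be technical.

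The labels of KDM5_KD replicate 2 disagree, since the title assigns it to the KDM5 knockdown and the treatment field lists siRNAs to KDM6 genes instead. It was kept in the group given by its title, and the differences that rest on it most are also given without it. KDM5A was at 28.4 and 27.1 FPKM in NC replicates 1 and 2 and at 10.5 and 10.1 FPKM in KDM5_KD replicates 1 and 2. KDM5C was at 28.1 and 40.6 FPKM in NC, against 15.1 and 17.8 FPKM in KDM5_KD. The library with the conflicting label thus had both targets at about the level of the other knockdown library. KDM5B was not analysed here. With only KDM5_KD replicate 1 as the knockdown, 42 of the 56 members were still 2-fold lower, among 91 such rows. With only KDM5_KD replicate 2 the number was 40, among 84 such rows. Both libraries had chosen the members, so these counts are a description and do not test the label. The 14 members that were not 2-fold lower without KDM5_KD replicate 2 were ULBP27, MPST, LY6G6E, MMP9, LY6G6C, RABIF, LZTFL1, HSPB3, MEDAG, DEGS2, TRIM7, AHCYL2, NRP2 and C16H1orf159, with differences between -0.99 and 1.60.

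KDM5 proteins are demethylases that take methyl groups off lysine 4 of histone H3, a residue whose trimethylated form marks the promoters of active genes. The stage sampled is the one at which the bovine embryo begins to transcribe its own genome in earnest while RNAs inherited from the oocyte are cleared. A transcript can therefore be lower in a whole-embryo library through lower synthesis or through faster loss. In bulk libraries such as these, fewer cells of a type and less RNA per cell cannot be told apart.

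The embryos' own markers named here were present in every library, some at high and some at low levels. POU5F1, the pluripotency factor OCT4, was at 59.2, 63.2, 60.0 and 56.2 FPKM, and KLF4 was at 606, 517, 507 and 422 FPKM, in NC replicates 1 and 2 and KDM5_KD replicates 1 and 2. In the same order of libraries, GATA3 was at 6.71, 5.05, 4.73 and 4.49 FPKM and CDX2 at 4.50, 4.52, 3.00 and 10.6 FPKM. SOX2 was at 107, 76.3, 66.2 and 53.8 FPKM, a difference of -0.60, while OTX2 differed by 1.07. FPKM summed to between 283347 and 322267 per library. Absolute depth is unknown, but steps among low values put NC replicate 2 at 1.46 times the depth of NC replicate 1. Against the knockdown libraries it was at 1.25 and 1.28 times their depth. Each ratio rests on a minority of the rows compared and is approximate. Follicle cells that surround the oocyte can carry RNA into such a sample. Of 14 cumulus or granulosa markers, 9 could be tested and 7 of these were higher in KDM5_KD, as were 5618 of all 8970 rows tested. None passed the threshold in limma, which called 0.0892% of all rows tested lower and 0.134% higher. An unadjusted limma p under 0.05 was reached by 6 of the 9, against 16.9% of all rows tested. The 2 lower ones were AMH and TNFAIP6, with differences of -0.63 and -0.09. AMH was at 2.77 and 1.12 FPKM in NC, against 1.28 and 0.957 FPKM in KDM5_KD. The list summed to 30.3 and 17.3 FPKM in NC and to 46.7 and 49.1 FPKM in KDM5_KD. INHA, an inhibin subunit, was at 1.20 and 0.489 FPKM in NC, against 3.67 and 2.91 FPKM in KDM5_KD, and GREM1, a BMP antagonist, was at 0.661 and 0.483 FPKM in NC, against 3.66 and 2.30 FPKM in KDM5_KD. CYP11A1, of steroid synthesis, was at 8.41 and 3.79 FPKM in NC, against 12.45 and 17.2 FPKM in KDM5_KD. FSHR was listed at 0 in both NC libraries and LHCGR in 3 of the 4 libraries, and FSHR and CYP19A1 were at most 0.0443 and 0.0602 FPKM in any library. The part of these cells in the members' differences was not tested.

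The 56 rows are of unequal quality, and the first question was which of them may be failed FPKM estimates. In 9 members a library was listed at 0 or under 0.001 FPKM, and in 11 a library was under 0.01 FPKM, although the same row was above 1 FPKM in another library. Rows with a library at 0 or under 0.001 FPKM are 0.412% of all rows tested (37 of 8970). By the wider limit of 0.01 FPKM the share was 19.6% of members and 0.468% of all rows. A value near 0 in a knockdown library makes the log2 difference large, so the rule favours such rows. In 6 more members the libraries were over 4-fold apart within a group. In the remaining 39 the libraries of each group lay within 4-fold of each other, and in 38 of these both knockdown values were below both control values.

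**Figure D1:**
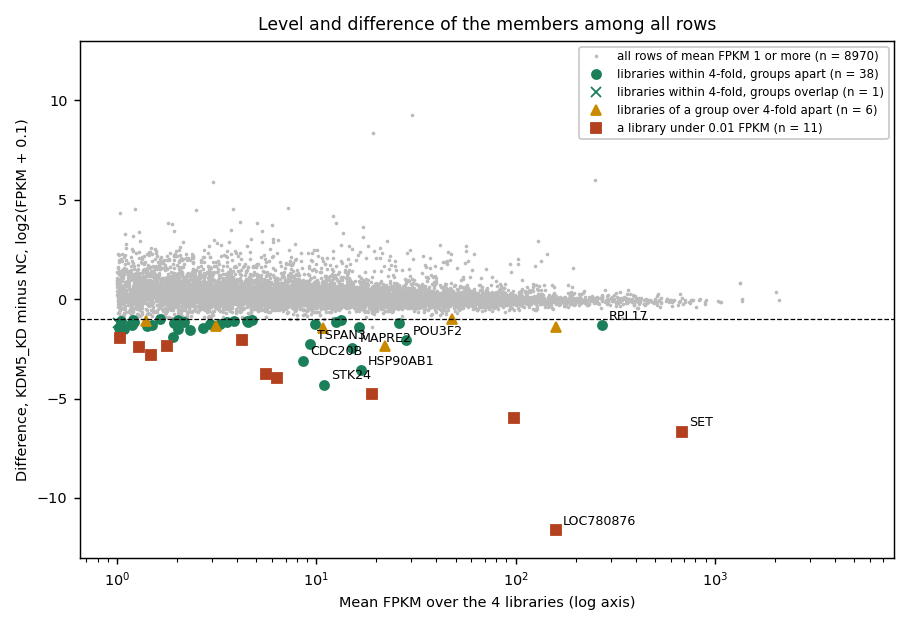
Difference between groups (KDM5_KD minus NC, log2(FPKM + 0.1)) against mean FPKM on a log axis, 1 point per row. Members are coloured by the steadiness of their libraries. Most of the 38 steady members sit just below the threshold of -1, and the largest difference, -11.63, belongs to a row near 0 in both knockdown libraries.

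Among the 11 rows near 0, LOC780876 alone was near 0 in both knockdown libraries and in no control library. It was at 295 and 342 FPKM in NC, against 5.84e-06 and 3.85e-06 FPKM in KDM5_KD. PTTG1, which encodes securin, the inhibitor of the protease separase, is a row with a similar pattern in another library. It was at 299, 1.37e-06, 354 and 353 FPKM in NC replicates 1 and 2 and KDM5_KD replicates 1 and 2. The sum of the 2 rows was 594, 342, 354 and 353 FPKM, a difference of -0.35 against -11.63 for LOC780876 alone. Thus whenever one of the pair was near 0, the other was between 342 and 354 FPKM, and only NC replicate 1 had both. This pair was chosen after its values were seen, and whether the 2 rows share reads was not tested. Only 8 of the 8970 rows tested were under 0.001 FPKM in one library and above 100 FPKM in another, and LOC780876, SET, MIR187 and PTTG1 are 4 of them.

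In 4 of the 11 rows NC replicate 2 was near 0 as well as knockdown libraries, so the low value was not particular to the knockdown. MIR187, a microRNA row, was at 395 FPKM in NC replicate 1 and listed at 0 in the other 3 libraries. C18H19orf48 was at 75.9 FPKM in NC replicate 1 and at 0.000217, 0.000114 and 0.000125 FPKM in NC replicate 2 and the 2 knockdown libraries. LOC282255 was at 25.3 FPKM in NC replicate 1, and at 7.30e-05, 0.00157 and 0.000587 FPKM in the same other 3 libraries. These rows are lower than the control mean because of 1 control library. The fourth, CHTF8, which encodes a subunit of an alternative clamp loader for sister chromatid cohesion, was at 5.09 FPKM in NC replicate 1 and at 0.00216, 0.00247 and 0.0786 FPKM in the others. Its groups overlapped.

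In 5 further rows KDM5_KD replicate 1 alone was near 0. SET, a histone chaperone and inhibitor of protein phosphatase 2A, was at 820 and 1064 FPKM in NC, against 0 and 852 FPKM in KDM5_KD replicates 1 and 2. DEFB123, a beta-defensin gene, was at 3.16 and 16.4 FPKM in NC, against 0 and 2.72 FPKM in KDM5_KD. The histone H4 gene H4C14 was at 3.20 and 1.65 FPKM in NC, against 1.09e-27 and 1.08 FPKM in KDM5_KD. For SET the second knockdown library lay between the control values, while for DEFB123 and H4C14 it lay below both. PIP, the gene for prolactin-induced protein, was at 1.55 and 1.24 FPKM in NC, against 0 and 1.33 FPKM in KDM5_KD. An NR row of IDH3B, a subunit of mitochondrial isocitrate dehydrogenase, was at 3.74 and 4.10 FPKM in NC, against 0.00280 and 8.997 FPKM in KDM5_KD. IDH3B is the 1 member whose linear mean was higher in the knockdown. ULBP27, of the family of NKG2D ligands, was near 0 only in KDM5_KD replicate 2, at 3.41 and 1.59 FPKM in NC, against 2.12 and 0.000654 FPKM in KDM5_KD.

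With only KDM5_KD replicate 2 as the knockdown, the difference of SET was -0.13, and with only KDM5_KD replicate 1 it was -13.19. For DEFB123 these values were -1.38 and -6.19, and for H4C14 they were -1.02 and -4.59. Each size therefore rests on the library listed near 0. ULBP27, the row near 0 in KDM5_KD replicate 2, had a difference of -2.37 with both libraries and of -0.13 without that one.

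Rows of the same gene gave a second view of these estimates. In 6 members (10.7%) another row carried the same symbol, against 2.92% of all rows tested. For C18H19orf48 the other row was at 9.52, 77.6, 82.3 and 71.3 FPKM, high where the member row was near 0. Summed over its rows, C18H19orf48 was at 85.4 and 77.6 FPKM in NC, against 82.3 and 71.3 FPKM in KDM5_KD, a difference of -0.09. IDH3B summed to 24.1 and 33.1 FPKM in NC and to 31.8 and 28.1 FPKM in KDM5_KD, a difference of 0.08. These 2 genes were thus at like levels in all 4 libraries once their rows were joined.

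The other shared genes also ended above the threshold of -1. MPST, the enzyme mercaptopyruvate sulfurtransferase, was at 28.6 and 36.5 FPKM in NC, against 21.1 and 1.83 FPKM in KDM5_KD in the member row, a difference of -2.34. Summed over its rows it was at 51.5 and 51.4 FPKM in NC, against 35.1 and 26.1 FPKM in KDM5_KD, a difference of -0.76 with the groups apart. The low value of the member row came from KDM5_KD replicate 2, and without that library its difference was -0.61. COA6, an assembly factor of cytochrome c oxidase, went from -1.43 in its member row to -0.48 in the sum. LOC100848574 went from -1.33 to -0.72 over 7 rows, and CRTAC1, which encodes a cartilage matrix protein, from -1.11 to -0.31. Counting genes instead of rows, the group has 50 members.

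Summed with rows under other symbols, LOC780876, LOC282255 and CHTF8 also ended above the threshold, all looked up after the values were seen. LOC780876 summed with PTTG1 had a difference of -0.35, with NC replicate 1 the highest library. LOC777594, whose row shares the synonym IFITM3 with LOC282255, was at 31.4, 10.9, 75.5 and 70.4 FPKM. The sum of both rows was higher in the knockdown by 1.55. LOC777594 was lowest in NC replicate 2, where LOC282255 was near 0 too, so this sum was not level across libraries. CHTF8 summed with the DERPC rows that overlap it was at 21.6, 22.0, 20.2 and 22.8 FPKM, a difference of -0.02.

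**Figure D2:**
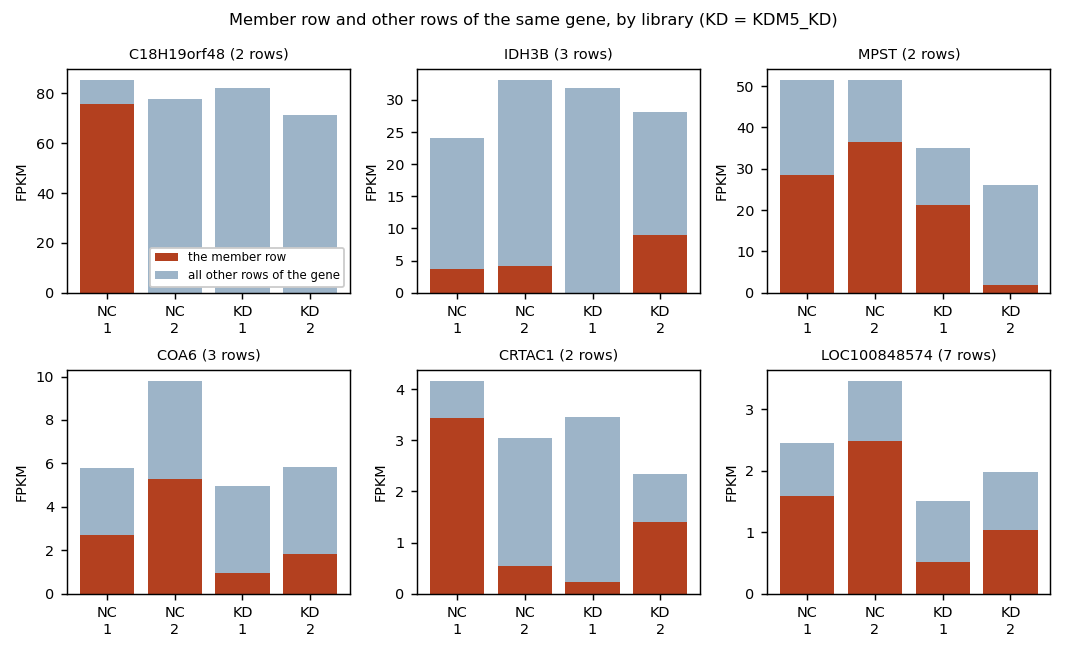
FPKM by library (NC replicates 1 and 2, KDM5_KD replicates 1 and 2) for genes with more than 1 row, with the member row, the other rows and their sum. The sum of C18H19orf48 stays between 71.3 and 85.4 FPKM while its member row drops to near 0 in 3 libraries.

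In 44 of the 56 members both knockdown libraries were below both control libraries, a pattern that 1402 of all 8970 rows (15.6%) showed. The selection on a low difference fixes most of this share. Comparing single libraries, 9 members were 2-fold lower in all 4 knockdown-to-control pairs, 18 in 3 of them and 29 in 2. Except for LOC780876, the 9 had no library near 0: they were STK24, HSP90AB1, CDC20B, MAPRE2, TSPAN3, POU3F2, RPL17 and GRAMD4.

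**Figure D3:**
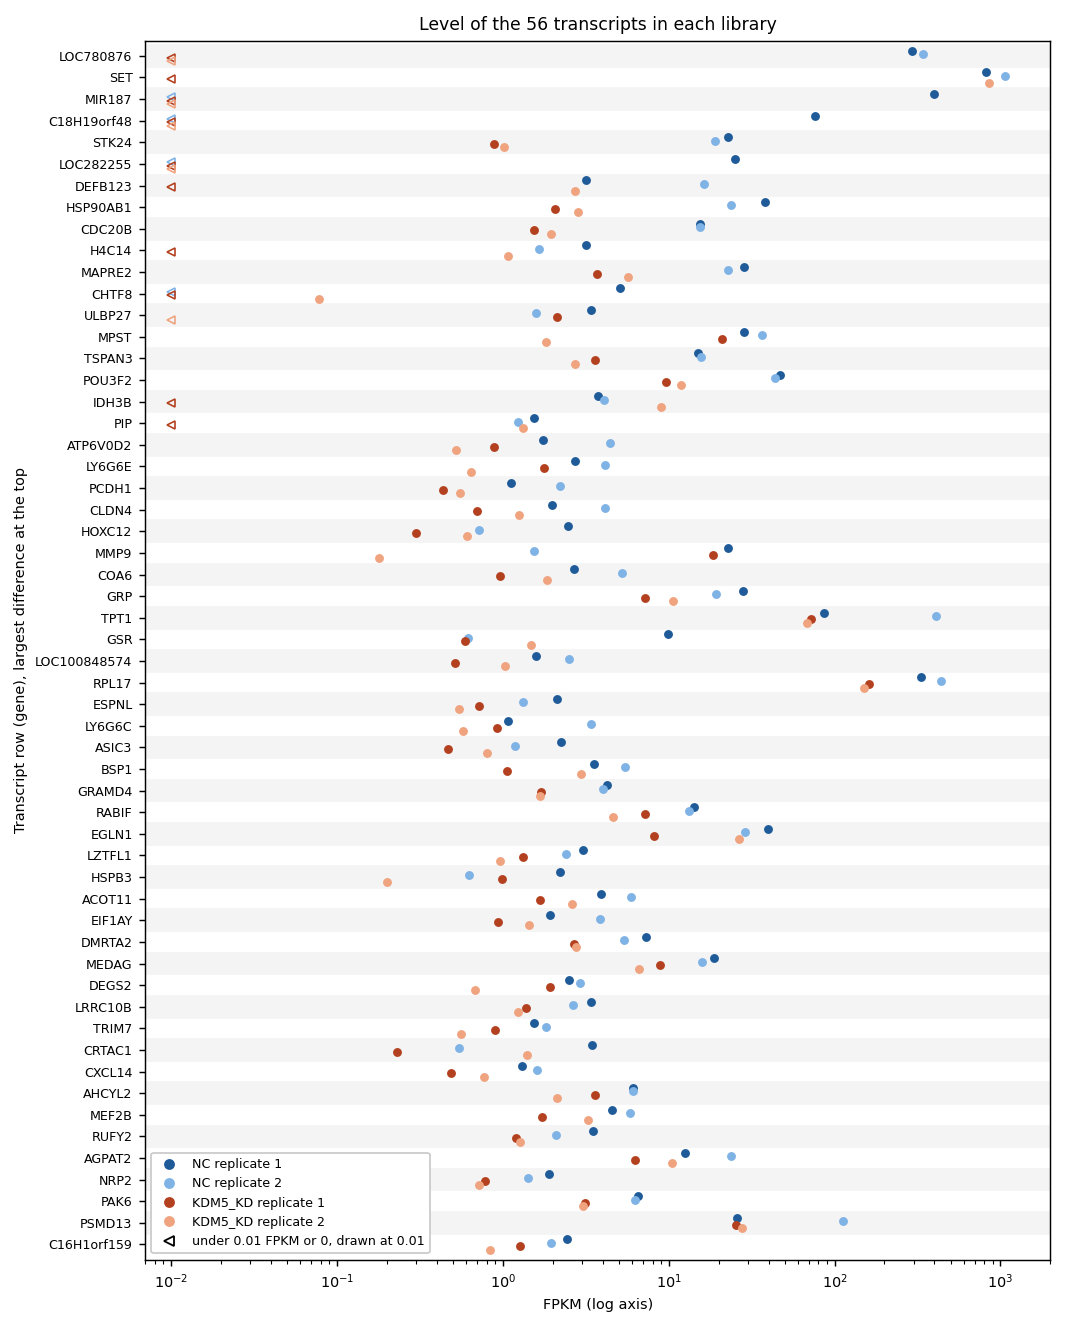
FPKM of each of the 56 members in the 4 libraries on a log axis, ordered by the difference. Points for the 2 groups separate widely for STK24, HSP90AB1, CDC20B, MAPRE2, TSPAN3 and POU3F2, and rows with a library near 0 run far to the left.

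The largest difference among rows with no library near 0 belonged to the signalling group. STK24, also called MST3, is a serine/threonine kinase of the germinal centre kinase family that sits in the STRIPAK phosphatase complex. It was at 22.7 and 18.96 FPKM in NC, against 0.888 and 1.02 FPKM in KDM5_KD. The means were 20.8 ± 2.64 and 0.956 ± 0.0958 FPKM (SD, n = 2), so the knockdown had 4.59% of the control level. Both knockdown values were low and alike, and the gap between the groups was far larger than the spread within either. On the log2(FPKM + 0.1) scale the difference was -4.31, and it was -4.40 without KDM5_KD replicate 2.

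All 5 members of this role were steady with the groups apart, as were 38 of all 56 members. The selection favours groups that are apart and the roles were assigned afterwards, so such counts only describe each role. PAK6, a p21-activated kinase, was at 6.53 and 6.29 FPKM in NC, against 3.14 and 3.05 FPKM in KDM5_KD. Its replicates were close, and its difference of -1.03 was just past the threshold. EGLN1, the prolyl hydroxylase that marks hypoxia-inducible factors for degradation, was at 39.8 and 28.9 FPKM in NC, against 8.17 and 26.7 FPKM in KDM5_KD. For EGLN1 the gap between groups was small beside the spread of the knockdown libraries, since KDM5_KD replicate 2 lay just under the lower control. RABIF, a partner of Rab GTPases, was lower by 1.24 on the log2 scale, and NRP2, a receptor for semaphorins and vascular endothelial growth factors, by 1.03.

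Of 5 members with roles in the cytoskeleton, the cell cycle or ubiquitin transfer, 4 were steady with the groups apart. CDC20B, a relative of the anaphase-promoting complex activator CDC20 that is known from multiciliated cells, was at 15.4 and 15.5 FPKM in NC, against 1.54 and 1.95 FPKM in KDM5_KD. Its means were 15.5 ± 0.0383 and 1.75 ± 0.292 FPKM (SD, n = 2), or 11.3% of the control level. The 2 control values were nearly equal, and the knockdown values were close to each other. MAPRE2, which encodes the microtubule plus-end binding protein EB2, was at 28.5 and 22.8 FPKM in NC, against 3.70 and 5.69 FPKM in KDM5_KD. Its knockdown mean was 18.3% of the control mean, a difference of -2.45 on the log2 scale, with no overlap of groups. ESPNL, a relative of the actin-bundling espin, and TRIM7, a ubiquitin ligase, were lower by 1.29 and 1.13 and stood at low levels, under 3 FPKM in every library.

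HSP90AB1, the constitutive cytosolic form of the chaperone HSP90, was at 38.2 and 23.9 FPKM in NC, against 2.07 and 2.84 FPKM in KDM5_KD. The means were 31.05 ± 10.1 and 2.45 ± 0.544 FPKM (SD, n = 2), so 7.91% of the control level remained. The control libraries differed from each other by more than the knockdown libraries did, and the groups were well apart. Of the 4 members classed as chaperones or histones it alone was steady with the groups apart, since SET and H4C14 had a library near 0. HSPB3, a small heat shock protein gene, was at 2.21 and 0.631 FPKM in NC, against 0.991 and 0.201 FPKM in KDM5_KD, and its groups overlapped.

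All 4 transcription factor genes among the members were steady with the groups apart. POU3F2 (BRN2), a POU-domain factor best known from neural cells, was the most abundant of them at 46.6 and 44.0 FPKM in NC and 9.65 and 11.9 FPKM in KDM5_KD. The means were 45.3 ± 1.85 and 10.8 ± 1.57 FPKM (SD, n = 2), a difference of -2.07, and all 4 single-library comparisons were past 2-fold. DMRTA2, a doublesex-related factor, was at 7.27 and 5.35 FPKM in NC, against 2.70 and 2.77 FPKM in KDM5_KD. HOXC12 was at 2.46 and 0.718 FPKM in NC, against 0.30 and 0.610 FPKM in KDM5_KD. For HOXC12 the lower control was barely above the higher knockdown value, whereas the DMRTA2 groups were well separated. MEF2B, a MADS-box factor, was lower by 1.09.

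Among 7 genes for membrane proteins, 6 were steady with the groups apart. TSPAN3, a tetraspanin, was at 15.0 and 15.7 FPKM in NC, against 3.59 and 2.74 FPKM in KDM5_KD. Its knockdown mean was 20.6% of the control mean, and the replicates of each group were within 1 FPKM of each other. The other 5 were expressed at a few FPKM. PCDH1, a protocadherin, was at 1.13 and 2.23 FPKM in NC, against 0.434 and 0.552 FPKM in KDM5_KD. CLDN4, a tight-junction claudin, was at 1.98 and 4.13 FPKM in NC, against 0.702 and 1.26 FPKM in KDM5_KD. Both had groups apart but control libraries about 2-fold from each other. LY6G6E was at 2.74 and 4.14 FPKM in NC, against 1.77 and 0.644 FPKM in KDM5_KD, and LY6G6C, of the same LY6 family, and ASIC3, an acid-sensing ion channel, were lower by 1.29 and 1.27.

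Of 7 genes for secreted proteins 3 were steady with the groups apart. GRP, the gene for gastrin-releasing peptide, was at 28.2 and 19.4 FPKM in NC, against 7.17 and 10.6 FPKM in KDM5_KD, a difference of -1.42. Its highest knockdown value was below its lowest control value by a clear margin. CXCL14, a chemokine, and BSP1, a binder of sperm protein, were lower by 1.11 and 1.27. MMP9, a matrix metalloproteinase, was at 22.95 and 1.55 FPKM in NC, against 18.6 and 0.180 FPKM in KDM5_KD. Replicate 1 of each group was high for MMP9 and replicate 2 low, so its groups overlapped and its difference of -1.43 was smaller than the spread between replicates.

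Of 9 metabolic genes 6 were steady with the groups apart. ATP6V0D2, a subunit of the vacuolar proton pump, was at 1.74 and 4.45 FPKM in NC, against 0.881 and 0.521 FPKM in KDM5_KD, a difference of -1.89. AGPAT2, which makes phosphatidic acid, was at 12.5 and 23.8 FPKM in NC, against 6.31 and 10.5 FPKM in KDM5_KD. Both had the groups apart, with control libraries that differed from each other by more, as a ratio, than the nearest values of the groups did. AHCYL2, ACOT11, an acyl-CoA thioesterase, and DEGS2, a sphingolipid desaturase, were lower by 1.10, 1.17 and 1.15. GSR, glutathione reductase, was at 9.89 and 0.616 FPKM in NC, against 0.592 and 1.49 FPKM in KDM5_KD, so 1 control library made its difference.

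RPL17, TPT1 and PSMD13, of translation and the proteasome, had the highest means among members with no library near 0. RPL17, a protein of the large ribosomal subunit, was at 332 and 438 FPKM in NC, against 160 and 149.7 FPKM in KDM5_KD. The means were 385 ± 74.8 and 155 ± 7.48 FPKM (SD, n = 2), or 40.2% of the control level, with all 4 single-library comparisons past 2-fold. TPT1, the translationally controlled tumour protein, was at 86.4 and 409 FPKM in NC, against 72.5 and 68.4 FPKM in KDM5_KD. PSMD13, a lid subunit of the proteasome, was at 25.9 and 113 FPKM in NC, against 25.6 and 27.6 FPKM in KDM5_KD. In both TPT1 and PSMD13 only NC replicate 2 was high, and without it the PSMD13 difference was 0.0371.

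EIF1AY, a translation initiation factor gene on the Y chromosome of mammals, was at 1.94 and 3.86 FPKM in NC, against 0.938 and 1.45 FPKM in KDM5_KD. Other Y-linked rows were read beside it. DDX3Y was at 44.5, 28.5, 54.8 and 25.9 FPKM and USP9Y at 4.23, 3.55, 5.23 and 3.39 FPKM, in NC replicates 1 and 2 and KDM5_KD replicates 1 and 2. DDX3Y differed by 0.08 and USP9Y by 0.12 (limma adjusted p of 0.934 and 0.877). LOC785023, a further Y-linked row, was at 75.2, 22.4, 62.1 and 40.9 FPKM and differed by 0.29 (limma adjusted p of 0.829). In each of these 3 rows the groups overlapped, whereas the EIF1AY groups were apart.

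Among the members with other or no stated role, GRAMD4 was at 4.27 and 4.01 FPKM in NC, against 1.70 and 1.67 FPKM in KDM5_KD. This was the closest agreement of replicates in that set, and the groups were over 2-fold apart in each pair. LZTFL1, a regulator of ciliary protein transport, MEDAG, RUFY2 and LRRC10B were lower by 1.18, 1.16, 1.07 and 1.14, all with the groups apart. C16H1orf159, at 2.45 and 1.96 FPKM in NC and 1.28 and 0.837 FPKM in KDM5_KD, was the member nearest to the threshold at -1.01.

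As a set, the members were low in abundance and variable. The same values chose them, so these levels and gaps also describe the selection. Their median NC level was 4.74 FPKM, against 9.67 FPKM for all rows tested, and 51.8% were under 5 FPKM in NC, against 34.1% of all rows. The median gap between the 2 NC libraries was 0.58 on the log2 scale for members and 0.25 for all rows, and between the knockdown libraries 0.60 and 0.21. The median difference was -1.34 over the 56 members, -1.26 over the 38 steady ones and 0.10 over all rows tested. In 29 of those 38, those outside the 9 that kept a 2-fold difference under every scaling, pseudocount and left-out library, the difference lay between -1.56 and -1.01. The group is therefore made of a few large differences and a longer series near the threshold.

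The threshold cuts through a continuum. PAK6, PSMD13 and C16H1orf159 were just inside it at -1.03, -1.02 and -1.01. Just outside, SERTAD4 was at 10.5 and 9.21 FPKM in NC and 5.40 and 4.41 FPKM in KDM5_KD, and ZC3H12A was at 10.97 and 10.4 FPKM in NC and 5.19 and 5.47 FPKM in KDM5_KD, each with a difference of -0.99. SLC25A40 followed at -0.98, with 13.5 and 13.6 FPKM in NC and 13.3 and 3.45 FPKM in KDM5_KD. SERTAD4 and ZC3H12A had closer replicates than many members inside the threshold.

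Few rows of any kind passed the test, and no relative of a member did. Family lists were drawn up after the members were known, and 0 of 104 rows of relatives passed the threshold in the limma fit over all 8970 rows, with 18 (17.3%) at an unadjusted p under 0.05, against 16.9% of all rows tested, and a smallest adjusted p of 0.136. That fit, in which members and siRNA targets were also counted, called 8 rows lower (0.0892%) and 12 rows higher (0.134%). Because the members were selected on these same values, the lower calls are not a result about them. STK25, the other kinase of the STK24 family with a tested row, was at 13.1 and 10.3 FPKM in NC, against 10.4 and 13.3 FPKM in KDM5_KD, a difference of 0.01 (limma adjusted p of 0.983). HSP90AA1, the inducible cytosolic partner of HSP90AB1, was at 221 and 235 FPKM in NC, against 253 and 258 FPKM in KDM5_KD. At 31.05 FPKM HSP90AB1 was thus the minor form in the control embryos by this table. MAPRE1 was at 56.6 and 49.4 FPKM in NC, against 64.8 and 73.7 FPKM in KDM5_KD, a difference of 0.39 against -2.45 for MAPRE2.

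The 5 other POU genes lay between -0.79, for POU2F3, and 0.66. POU3F1, of the same POU class as POU3F2, was at 39.0 and 22.4 FPKM in NC, against 32.1 and 19.04 FPKM in KDM5_KD, with the groups overlapping. All 10 other tetraspanins had positive differences with the FPKM as deposited (9 of 10 after quantile normalization), with a median of 0.83, whereas TSPAN3 was at -2.25. An unadjusted limma p under 0.05 was reached by 7 of these 10. It was also reached by 2 of 2 other small heat shock genes, HSPB1 at 1.75 and HSPB6 at 1.07. Every other family had at most 2 such rows. Of 46 other large-subunit ribosomal protein rows 31 were lower, but by little, in a range from -0.30 to 0.27 around a median of -0.06, against the -1.30 of RPL17. The split of these small differences followed the scaling, with 40 lower after median-ratio scaling and 20 after quantile normalization. The 13 other PSMD subunits lay between -0.23 and 0.61, and 7, 10 or 11 of them were below 0 as deposited, after median-ratio scaling or after quantile normalization. Among the other histone H4 genes 7 of 8 were higher (6 after quantile normalization). The 6 other claudins lay between -0.76 for CLDN3 and 0.49, with 3 of them lower as deposited and 5 after quantile normalization. CLDN6 was at 49.1 and 70.7 FPKM in NC, against 40.5 and 46.3 FPKM in KDM5_KD, a difference of -0.44. It and CLDN5, at -0.56, had the groups apart (limma adjusted p of 0.336 and 0.491). In the remaining claudins, CLDN3 among them, the groups overlapped.

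**Figure D4:**
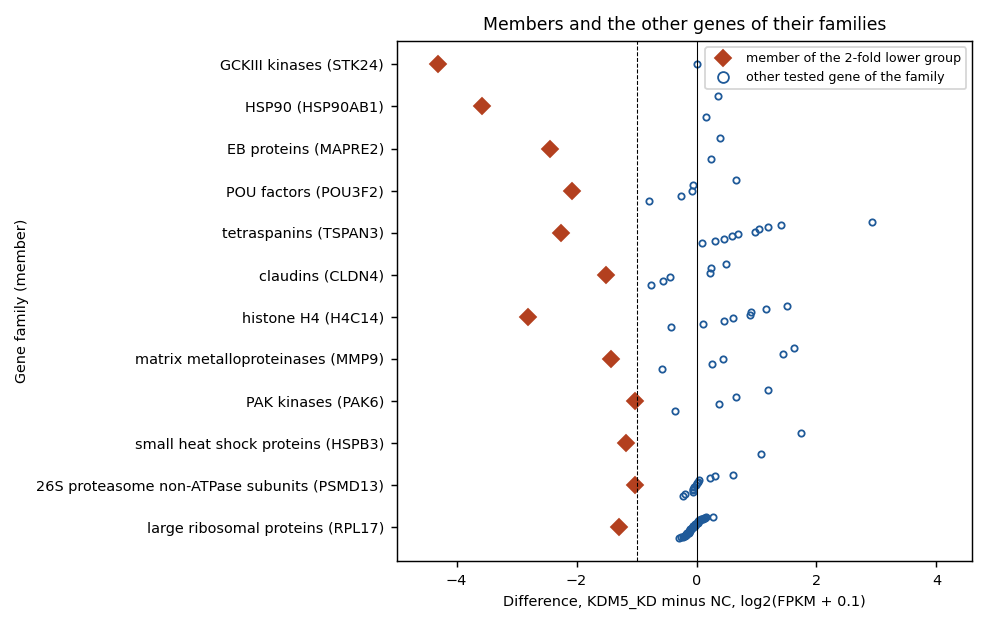
Difference between groups (KDM5_KD minus NC, log2(FPKM + 0.1)) for members and for the other tested genes of their families, 1 row per family. The 46 other RPL rows stay between -0.30 and 0.27 while RPL17 lies at -1.30, and the tetraspanins other than TSPAN3 lie above 0 with the FPKM as deposited (1 of 10 is below 0 after quantile normalization).

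Partners of the members in known complexes were compared from lists that also held embryonic, oocyte and follicle-cell genes. The lists were drawn up with earlier results of these data known. None of 123 listed rows passed the threshold in limma, which called 0.0892% of all rows tested lower and 0.134% higher. An unadjusted limma p under 0.05 was reached by 24 (19.5%), against 16.9% of all rows tested. Of the 24, 6 were cumulus or granulosa markers, 4 oocyte and maternal genes and 3 of embryonic genome activation. The germinal centre kinase and STRIPAK list had 2, the HSP90 machinery 4 and microtubule plus ends 3. The anaphase-promoting complex had 1, multiciliation 1 and the POU factors 0. The 13 tested rows of the germinal centre kinases and STRIPAK had a median difference of 0.01, the 19 of the HSP90 machinery 0.10, the 17 of microtubule plus ends 0.01 and the 21 of the anaphase-promoting complex (20 genes, with ANAPC13 in 2 rows) 0.03. The background median was 0.10. Of 22 rows for 21 genes of embryonic genome activation (DPPA3 has 2) 12 were lower (15 after median-ratio scaling, 11 after quantile normalization), with a median of -0.03 and a range from -0.60 for SOX2 to 1.07 for OTX2. All 15 oocyte and maternal genes had positive differences as deposited, between 0.08 and 0.91, while 14 and 13 did after median-ratio scaling and quantile normalization, and none passed the threshold. This list summed to 406 and 319 FPKM in NC and to 452 and 601 FPKM in KDM5_KD, and its part in the differences of the members was not tested.

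Neighbouring genes were lower about as often as any tested row. In the RefSeq gene order 54 members could be placed, with 104 other tested genes next to them. Of these 39 were lower (37.5%, against 37.4% of all rows), and their median difference was 0.09. In limma 0 of them passed the threshold, while 0.0892% of all rows tested were called lower and 0.134% higher. An unadjusted limma p under 0.05 was reached by 18 (17.3%), against 16.9% of all rows tested. FARP1 and DOCK9 flank STK24 and had differences of 0.89 and 0.59, while DHX29 beside CDC20B had -0.16 and FBXL4 and MMS22L beside POU3F2 had 0.65 and -0.07. The neighbour with the smallest adjusted p, 0.0758 in limma, was TMIE beside LZTFL1, at 0.495 and 0.524 FPKM in NC, against 3.27 and 3.95 FPKM in KDM5_KD. LY6G6C and LY6G6E were the 1 pair of members next to each other.

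Where genes overlap, reads can be assigned to either row, and strand-specific counting is not stated. For 6 members the span in the reference overlapped that of 7 other tested genes, CDC20B with GPX8 among them. GPX8, a glutathione peroxidase gene, was at 0.822 and 0.776 FPKM in NC, against 3.39 and 3.91 FPKM in KDM5_KD, a difference of 2.06 (SE 0.314, limma adjusted p of 0.114). It was thus higher in the libraries where CDC20B was lower. The sum of the 2 rows was 16.3 and 16.3 FPKM in NC, against 4.93 and 5.86 FPKM in KDM5_KD. That is a difference of -1.58, still past the threshold of -1. Whether reads passed between the 2 rows was not tested.

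The size of the group depended on the processing. With a pseudocount of 1 there were 26 rows, all of them members, and after quantile normalization 148, all 56 among them. Quantile normalization moved the median difference of all rows from 0.10 to -0.05, and the rows 2-fold higher from 715 to 411. Leaving out single libraries gave from 73 to 91 rows. A 2-fold difference was kept by 12 members under every scaling, pseudocount and left-out library: STK24, HSP90AB1, CDC20B, MAPRE2, TSPAN3, POU3F2, ATP6V0D2, GRP and RPL17, which had no library near 0, and LOC780876, DEFB123 and H4C14, which did. Without KDM5_KD replicate 2 the differences of the 6 largest of the 9 were -4.40 for STK24, -3.80 for HSP90AB1, -3.25 for CDC20B, -2.75 for MAPRE2, -2.07 for TSPAN3 and -2.22 for POU3F2. Without KDM5_KD replicate 1 they were -4.21, -3.37, -2.92, -2.14, -2.44 and -1.92.

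**Figure D5:**
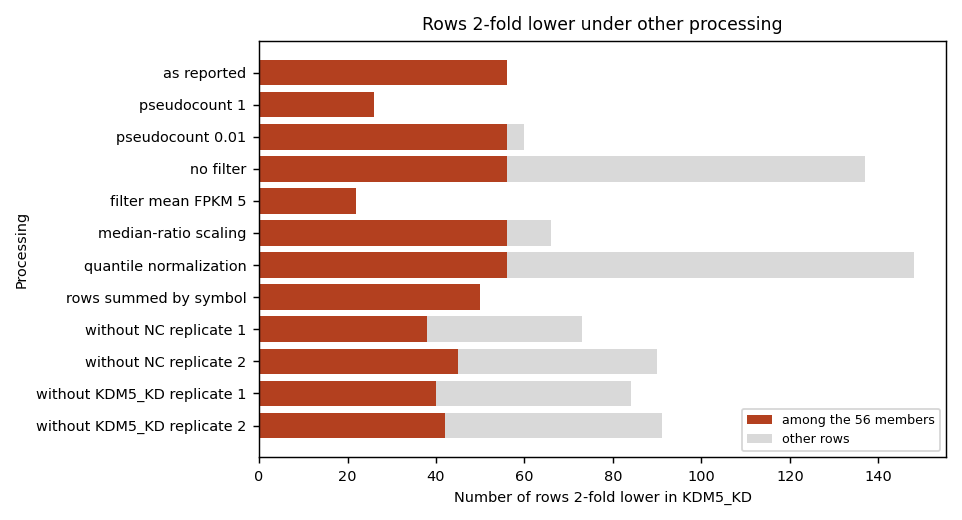
Number of rows 2-fold lower in KDM5_KD under each processing, with the part that belongs to the 56 members. The count runs from 22 rows with a filter at 5 FPKM to 148 after quantile normalization.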

How the data were processed

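The authors deposited a table of FPKM values for 14517 RefSeq transcript accessions in 4 libraries, used as deposited. Trimmomatic, HISAT2, featureCounts and Cufflinks are named in the submitters' processing notes without roles. The build and annotation are not given in the sources used here, so no positions are printed. Symbols came from a RefSeq gene table (ARS-UCD2.0), matched for 14295 rows. Values reach down to 4.83e-141, so they are estimates that can divide reads between transcripts.

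Differences are means of log2(FPKM + 0.1), KDM5_KD minus NC. With limma 3.58.1 in R 4.3.3 and a trend, all 8970 rows with a mean of at least 1 FPKM were fitted, members included. Benjamini-Hochberg adjustment ran over the same rows, with a threshold of adjusted p under 0.05. Test results of single rows are given only for rows other than members. The fit was also run on simulated data drawn with its own estimate of spread. That checks the code and not whether the model suits these rows. Plots were drawn with matplotlib 3.10.9, and tables were handled in Python 3.11.15 with numpy 2.4.6 and pandas 2.3.3.

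Members and lists were chosen with earlier results of these data known, and roles, families and single rows set beside members after the members were seen. Values in all libraries are given for the 15 largest differences among members with a symbol other than LOC and no library under 0.001 FPKM, for every member under that limit, for the 3 highest in mean FPKM and for the 3 on each side of the threshold. Further members with values were chosen after their values were seen. Alternatives covered the pseudocount, filter, scaling, row summing, block, trend and each library. Promoter and protein sequences were not analysed here.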

Additional observations from a re-analysis of the deposited data

How the results depend on the processing

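The number of members, 56, became 26 with a pseudocount of 1, 137 with no filter, 22 with a filter at 5 FPKM and 148 after quantile normalization, and ranged from 73 to 91 with single libraries left out. Rows called lower by limma, 8, became 1 with no filter, 5 with the replicate block and 3 without a trend, and ranged from 3 to 18 with libraries left out. Rows called higher, 12, became 30 with no filter, 6 without a trend and 9 with the replicate block, and ranged from 2 to 449. Calls in the lists, 0, ranged from 0 to 8, with the 8 without NC replicate 1. A group left with 1 library was assumed to vary like the other. The rows called lower and higher were counted over all rows fitted, members and siRNA targets included.

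Of 296 comparisons of a named member with an alternative, 73 left the value as it was, many of them because a filter or row summing does not alter a single row. Of the 223 that altered it, 192 were still 2-fold lower, 24 lay between the threshold and 0, and 7 changed sign. With single libraries left out the difference ranged from -7.97 to 0.0144 for LOC282255, from -5.26 to 0.405 for CHTF8, from -5.29 to 1.18 for IDH3B, from -4.46 to 1.60 for MMP9 and from -2.08 to 0.0371 for PSMD13. It was above 0 for LOC282255, CHTF8 and MMP9 (0.473) without NC replicate 1, for PSMD13 without NC replicate 2, for IDH3B without KDM5_KD replicate 1 and for MMP9 without KDM5_KD replicate 2. Summed by symbol IDH3B was at 0.0799. The cause of these changes of sign was not tested.

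Same-numbered libraries deviated together at a correlation of 0.231 over rows, but with 2 pairs the numbers remain numbers, and the block is an alternative only. Absolute depth is unknown, so precision rests on 2 libraries a group.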
